A study of Homo sapiens with 6 samples.

Results

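The loci described here are the places in the genome where PAI-1 ChIP-seq gave a peak in all 4 immunoprecipitated libraries, with 2 libraries per cell line, RT112 and UM-UC-3. They were found by taking the peaks of RT112 replicate 1 that shared at least 1 bp with peaks of all 3 other lists, after identical intervals in a list had been counted once. This gave 2090 members among 96423 peaks of RT112 replicate 1, or 2.17%, and left 94333 remaining peaks of that list. The 4 lists together held 380031 peaks.

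RT112 and UM-UC-3 are established human bladder cancer cell lines, and both were used as parental cells with no treatment stated for the ChIP. Each line had 2 libraries made with an antibody to endogenous PAI-1 on nuclear extract, labelled as biological replicates, and 1 input library, which was not analysed here. The question was whether PAI-1 is found on chromosomal DNA. Each line stands for 1 tumour only, no library made with a control antibody was analysed here, and the lists carry no read counts. For sequencing depth the sources used here give a mean over samples and no value per library.

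PAI-1 is a secreted serpin that blocks tissue-type and urokinase-type plasminogen activator and thereby slows the dissolution of fibrin clots. It also binds vitronectin in the matrix outside the cell. It is not known as a sequence-specific DNA-binding factor. ChIP-seq recovers DNA that is held by an antibody to a protein, directly or through other chromatin proteins, and a peak is a stretch where the recovered reads pile up above their surroundings.

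Since presence in the 4 lists chose the members, their scores, widths and overlaps are given as a description with no test. The score is the value that the peak caller gave to each peak, a −log10 p-value or q-value, and the percentile of a score is its rank within its own list, with 100 at the top. Since depth per library is not known, scores of different libraries cannot be taken to be on a common scale. Where scores of the 2 lines are compared at a locus below, the listed values are described, and a difference in binding was not tested. The lists of a cell line were close to each other in shape. Among all 36845 peaks of RT112 replicate 1 that met a peak of RT112 replicate 2, both ends lay within 1 bp in 45.1%, and among the 81814 such peaks of UM-UC-3 replicate 1 the share was 69.3%. Between the lines, it was 1.70% and 1.71% of the RT112 replicate 1 peaks that met a peak of UM-UC-3 replicate 1 or 2. Whether the replicates share material was not tested, and the labels call them biological replicates.

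Sequences are shown for 5 of the leading loci because base composition was 1 feature in which the strongest members stood out. Nearness to assembly gaps, given below, was another. Each is 200 bases centred on the stretch that all 4 peaks had in common, on GRCh37, with runs of at least 8 purines (A or G) or at least 8 pyrimidines (C or T) in capitals. All rank among the 10 members with the best mean percentile, and each is named by a gene it lies in or near.
TBX5 locus (chr12:114670187-114670386, plus strand): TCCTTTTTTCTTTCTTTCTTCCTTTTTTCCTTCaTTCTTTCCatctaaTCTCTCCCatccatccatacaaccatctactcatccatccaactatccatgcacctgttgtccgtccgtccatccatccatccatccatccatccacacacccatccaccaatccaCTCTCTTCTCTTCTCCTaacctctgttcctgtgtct
CYP2B6 locus (chr19:41520763-41520962, plus strand): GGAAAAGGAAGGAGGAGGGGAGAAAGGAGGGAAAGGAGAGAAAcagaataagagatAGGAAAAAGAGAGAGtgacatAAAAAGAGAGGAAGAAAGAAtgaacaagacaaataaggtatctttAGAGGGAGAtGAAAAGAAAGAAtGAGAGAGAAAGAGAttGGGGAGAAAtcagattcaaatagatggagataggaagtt
CST2 locus (chr20:23796945-23797144, plus strand): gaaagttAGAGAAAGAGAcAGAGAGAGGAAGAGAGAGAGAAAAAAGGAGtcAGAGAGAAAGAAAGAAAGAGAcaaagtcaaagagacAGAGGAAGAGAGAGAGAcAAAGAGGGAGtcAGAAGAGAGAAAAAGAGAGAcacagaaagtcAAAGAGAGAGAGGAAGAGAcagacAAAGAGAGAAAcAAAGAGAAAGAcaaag
POU2F2 locus (chr19:42653609-42653808, plus strand): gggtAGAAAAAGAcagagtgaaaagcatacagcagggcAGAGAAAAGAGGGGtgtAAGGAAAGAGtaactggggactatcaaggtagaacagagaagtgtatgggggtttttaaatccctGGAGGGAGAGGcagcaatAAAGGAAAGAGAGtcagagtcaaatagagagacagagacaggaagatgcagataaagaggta
TLE3 locus (chr15:70605471-70605670, plus strand): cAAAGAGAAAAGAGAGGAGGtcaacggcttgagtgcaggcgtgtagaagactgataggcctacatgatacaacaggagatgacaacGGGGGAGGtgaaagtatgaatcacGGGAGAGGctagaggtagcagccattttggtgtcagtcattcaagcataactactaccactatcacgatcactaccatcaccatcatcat

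Purine or pyrimidine content, used throughout, is the larger of the share of A and G and the share of C and T, a measure added after the sequences had been seen. In the CST2 window, 75% of the bases lay in capital runs and 90% of all bases were purines. The CYP2B6 window held a run of 43 purines and was 85.0% purine. The TBX5 window was rich in pyrimidines instead, at 78.5%, with a run of 33. Over its whole peak, the TBX5 member had a lower purine or pyrimidine content, 66.8%. It fell short of the limit applied to whole peaks further on, so it is not counted there among the purine-rich or pyrimidine-rich members. The POU2F2 window was 77.0% purine with 28.5% of its bases in runs. The TLE3 window shows that a top rank did not need such composition, since 17.5% of its bases lay in runs.

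The path from the RT112 replicate 1 list to the members narrowed mainly at the step between cell lines. Of its 96423 peaks, 56146 (58.2%) met no peak of another list, and 33504 (34.7%) met only RT112 replicate 2. Peaks of UM-UC-3 replicate 1 covered 1.17% of the sequenced bases of the assembly and met 5.63% of the RT112 replicate 1 peaks. Those of UM-UC-3 replicate 2 covered 1.21% and met 5.77%. A peak counts as met when 1 bp overlaps, so the share of bases and the share of peaks are unlike measures. Their ratio does not measure an excess of overlap. Both UM-UC-3 lists were met by 2090 of the 36845 peaks that RT112 replicate 2 also held (5.67%) and by 2120 of the 59578 that it did not (3.56%).

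This order was also seen within classes of score. Below percentile 50 of the score, both UM-UC-3 lists were met by 4.22% of the peaks that RT112 replicate 2 also held and by 3.09% of those that it did not. In the top 10% of scores, the shares were 8.71% and 5.91%. Peaks seen in both RT112 libraries thus met UM-UC-3 peaks more often in each of the 4 score classes compared. Without RT112 replicate 2 in the rule, 4210 peaks were members. Seen from the other lists, the same rule gave 2035 peaks of RT112 replicate 2 (3.38%). From the UM-UC-3 lists it gave 2044 (1.87%) for replicate 1 and 2049 (1.8%) for replicate 2.

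Most members overlapped well and few sat at the limit of the rule. The smallest of the 3 overlaps had a median of 228 bp and was at least 100 bp in 1827 members (87.4%). In 27 members (1.29%) it was 1 to 10 bp. Just inside the rule, chr2:26723440-26723703 had a smallest overlap of 1 bp and scored 3.63 and 2.04 in RT112 replicates 1 and 2, against 13.5 and 11.9 in UM-UC-3 replicates 1 and 2. Just outside it, chr3:715117-715488 scored 7.43 in RT112 replicate 1 and missed the nearest peak of UM-UC-3 replicate 1 by 4 bp. Of the 3371 remaining peaks that lacked 1 list only, 7 missed it by at most 10 bp and 1677 (49.7%) by more than 10 kb.

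Peak positions agreed more closely within a line than between lines. At the members, both ends of the RT112 replicate 2 peak lay within 1 bp of those of replicate 1 in 837 cases (40%), and the ends of the UM-UC-3 peaks lay within 1 bp of each other in 1284 (61.4%). Against the RT112 replicate 1 ends, this held for 12 members (0.574%) in UM-UC-3 replicate 1 and 19 (0.909%) in replicate 2. The centres of the RT112 peaks were a median of 4 bp apart, while those of the UM-UC-3 peaks lay a median of 89.5 and 88 bp from the centre in RT112 replicate 1. The centre lay within 50 bp in 80.9% of members for RT112 replicate 2 and in 35.1% for both UM-UC-3 libraries.

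The members scored above the pooled remaining peaks, and about as high as the peaks that lacked 1 UM-UC-3 list only. Their median score in RT112 replicate 1 was 7.38, against 3.80 for the remaining peaks, a difference of 3.58, and 6.15 for the remaining peaks that met RT112 replicate 2. Without RT112 replicate 1 or 2, the difference was 1.20 or 1.14. When RT112 replicate 1 is left out, the peaks and their scores come from another list, so 1.20 is not on the scale of 3.58. The widths and GC contents given below without RT112 replicate 1 are likewise those of another list. The 621 and 630 peaks that met RT112 replicate 2 and just 1 UM-UC-3 list, replicate 1 or replicate 2, had a median score of 7.43 in both cases. A score of at least 10 was reached by 692 members (33.1%), against 10.1% of all RT112 replicate 1 peaks, and by 35.9% and 34.4% of those 621 and 630 peaks. The median score of the peak at each member was 5.39 in RT112 replicate 2, while the UM-UC-3 libraries gave 6.61 for replicate 1 and 6.57 for replicate 2. In percentiles, the mean over members was 71.1 and 64 for the RT112 libraries and 67.9 and 68.2 for those of UM-UC-3.

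By cell line, this mean percentile was 67.5 ± 4.99 (SD, n = 2) in RT112 and 68.0 ± 0.243 (SD, n = 2) in UM-UC-3, a difference of 0.502. It was smaller than the SD of RT112, and with 2 libraries per line no test could pass a threshold, so the lines cannot be called alike or different from it. Without RT112 replicate 1 the difference was 4.03, and without RT112 replicate 2 it was -3.03.

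A peak in all 4 lists was in many cases not a strong peak. The peak lay below percentile 50 of its own list in 458 members (21.9%) for RT112 replicate 1 and 720 (34.4%) for replicate 2. For UM-UC-3 this held in 541 members (25.9%) for replicate 1 and 550 (26.3%) for replicate 2. Only 129 members (6.17%) were in the top 10% of all 4 lists, 58 in the top 5% and 9 in the top 1%. The ranking of the members was shared within a line and much less so between lines. Over the 2090 members, Spearman's rho of the scores was 0.74 between the RT112 libraries, 0.75 between the UM-UC-3 libraries and 0.18 to 0.20 for the 4 pairs of libraries from different lines, where the points share the loci and their composition.

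**Figure D1:**
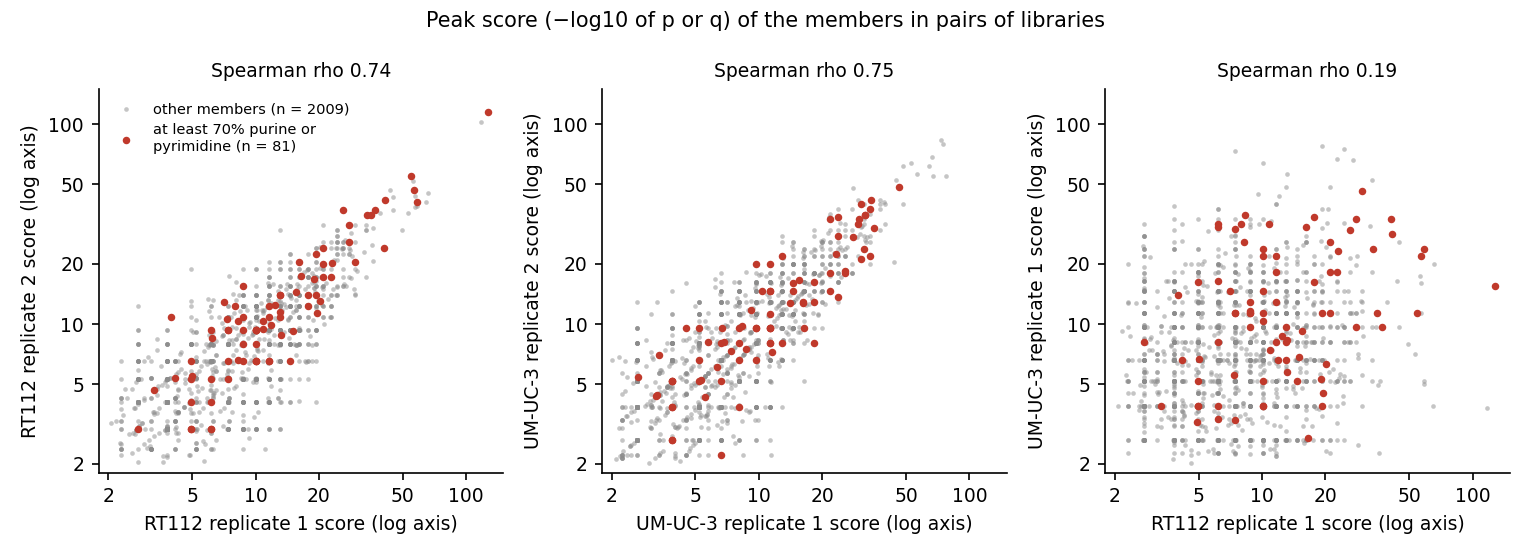
Peak scores (−log10 of p or q, log axes) of the 2090 members in 3 pairs of libraries, each point being 1 member and members of at least 70% purine or pyrimidine being red. The points lie along the diagonal for the RT112 pair (rho 0.74) and the UM-UC-3 pair (rho 0.75) and spread widely between RT112 replicate 1 and UM-UC-3 replicate 1 (rho 0.19).

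The share of RT112 replicate 1 peaks that were members was larger at higher scores and widths. It was 0.727% among peaks below percentile 25 of the score and 11.6% in the top 1%. By width it was 1.56% below 250 bp and 7.01% at 700 bp or more. The median width was 320 bp in members and 293 bp in the remaining peaks, a difference of 27 bp that was 14.0 and 15 bp without RT112 replicate 1 and 2, and 5.36% of members were at least 700 bp wide against 1.66% of all peaks of the list. The peaks that lacked 1 UM-UC-3 list only had medians of 319 and 315.5 bp. A wide peak meets others more easily, so width is bound up with the rule.

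**Figure D2:**
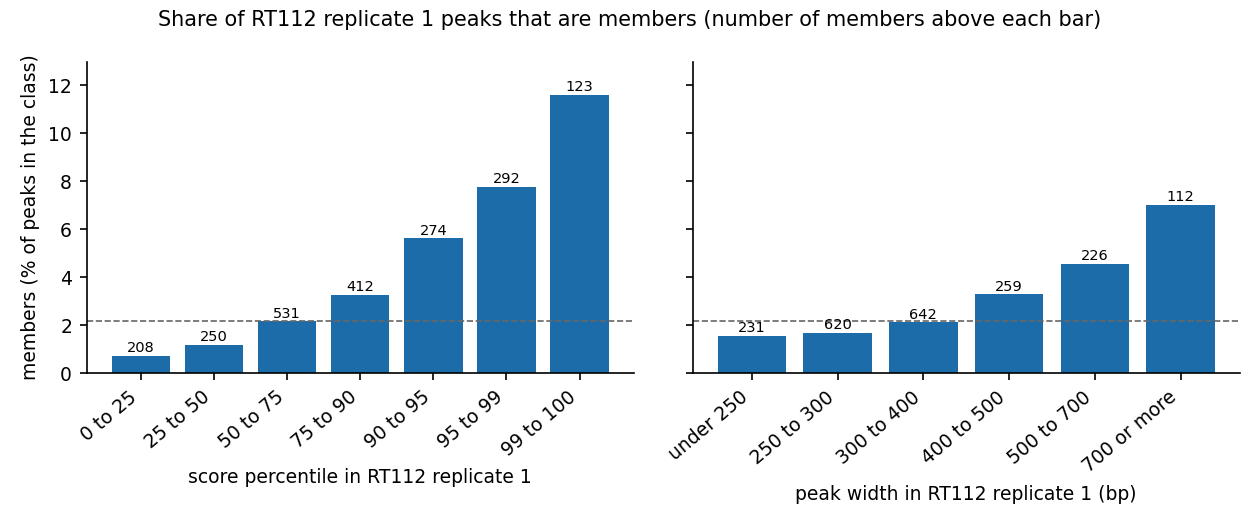
Share of RT112 replicate 1 peaks that were members, in percent, by class of score percentile (left) and of width in bp (right), with the number of members above each bar and the share over all peaks, 2.17%, as a dashed line. The share climbs from 0.727% to 11.6% with the score and from 1.56% to 7.01% with the width.

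The member with the best mean percentile was chr12:66172410-66172787, in an intron of RPSAP52, a transcribed pseudogene, and 45.5 kb from HMGA2, which encodes an architectural chromatin protein. It scored 33.3 and 29.5 in RT112 replicates 1 and 2 and 52.8 and 63.8 in UM-UC-3 replicates 1 and 2, so both UM-UC-3 scores were above both RT112 scores. The 32 bases at its centre occurred at 85 places of the assembly, which sets it apart from the other 9 of the 10 leading members, where they occurred at 1 place.

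The next locus, chr12:114669843-114670456, lay between genes, 121 kb from TBX5, a T-box factor of heart and forelimb development. It scored 24.4 and 27.6 in the RT112 libraries, against 75.3 and 79.7 in those of UM-UC-3. The lines did not overlap here, and UM-UC-3 was the higher. At chr15:70605370-70605764, 215 kb from TLE3, a corepressor of the Groucho family, the order was the other way, with 44.7 and 43.0 for RT112, against 25.7 and 21.8 for UM-UC-3.

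4 of the 6 leading members were at least 70% purine or pyrimidine over their whole width. At chr19:50994772-50995291, which lay 0.644 kb from EMC10, a subunit of a complex that inserts proteins into the endoplasmic reticulum membrane, the purine or pyrimidine content was 83.7% and the scores were 41.4, 41.6, 28.1 and 27.2 in RT112 replicates 1 and 2 and UM-UC-3 replicates 1 and 2. The locus chr19:41520744-41521299 in an intron of CYP2B6, a cytochrome P450 of drug metabolism, had a content of 74.3% and scored 40.8, 24, 33.6 and 37.6 in the same order. These loci differ in how the lines compare: both RT112 scores were the higher ones at EMC10, whereas the lines overlapped at CYP2B6.

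The locus chr20:23796589-23797139, 7.27 kb from CST2, a salivary inhibitor of cysteine proteases, had a content of 73.0% and scored 26.1, 37.1, 29.6 and 31.5. The locus chr19:42653573-42654006 in POU2F2, a POU-domain factor of B cells, had a content of 70.3% and scored 33.8, 35.2, 23.8 and 34.4. At both, the scores of the lines overlapped. POU2F2 held 2 further members at chr19:42681896-42682839, which lay on a single peak of UM-UC-3 replicate 1 with a score of 31.8 and scored 7.97 and 10.8 in RT112 replicate 1.

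Of the remaining 3 of the 10 leading members, 1 was of the same kind. This locus on chromosome 8 lay in CIBAR1-DT, a long non-coding RNA gene, had a purine or pyrimidine content of 73.4% and scored 29.7, 20.5, 46.2 and 48.3, with both UM-UC-3 scores higher. The locus chr12:6573561-6573805 lay where VAMP1, a vesicle fusion protein, and TAPBPL, an editor of peptides on MHC class I, adjoin, and it scored 32.7, 23, 30.9 and 30.8. The locus chr5:116022464-116022832, nearest to SEMA6A, a transmembrane semaphorin of axon guidance, scored 24.4, 29.5, 32.1 and 26.3. The lines overlapped at both of the last.

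**Figure D3:**
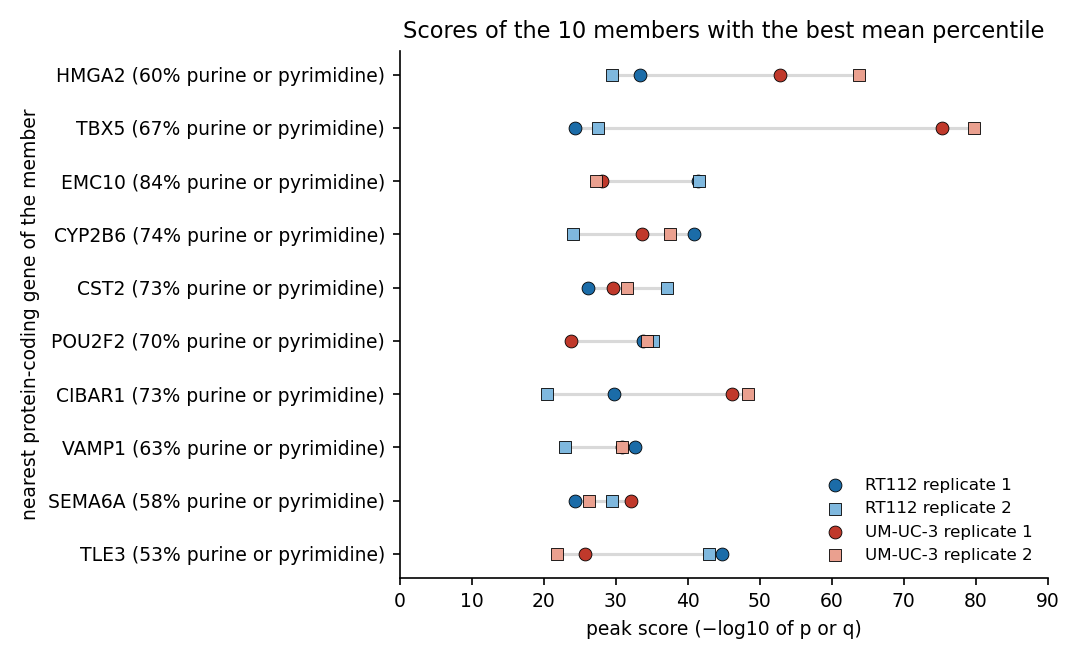
Scores (−log10 of p or q) of the 10 members with the best mean percentile in RT112 replicate 1 and 2 (blue) and UM-UC-3 replicate 1 and 2 (red), labelled by the nearest protein-coding gene and the percent of purine or pyrimidine. The lines separate at HMGA2, TBX5 and CIBAR1 with UM-UC-3 higher, at EMC10 and TLE3 with RT112 higher, and overlap at the other 5.

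The highest score of any member in RT112 was at chr21:11115739-11116513, 71.6 kb from an assembly gap and with a purine or pyrimidine content of 79.4%. It scored 127 and 115 in RT112 replicates 1 and 2 and 15.5 and 16.7 in UM-UC-3 replicates 1 and 2, so both RT112 scores were far above both UM-UC-3 scores. The next highest in RT112, chr6:150256083-150256431, lay 6.72 kb from ULBP2, a ligand of the natural killer receptor NKG2D, and had no such composition, at 55.6%. It scored 117 and 103 in the RT112 libraries, against 3.80 and 4.80 in those of UM-UC-3. The highest members of the UM-UC-3 lists were other loci. At chr10:30106302-30106684, 80.4 kb from SVIL, an actin-binding protein of the cell cortex, UM-UC-3 replicates 1 and 2 gave 73.6 and 83.6, whereas RT112 gave 7.43 and 4.09. At chr14:94891827-94892157, 16.6 kb from SERPINA11, a member of the same serpin family as PAI-1, they gave 77.4 and 54.8, whereas RT112 gave 19.3 and 9.32. At chr5:156494050-156494447 in HAVCR1, a receptor known as a kidney injury marker, they gave 66.3 and 68.4, whereas RT112 gave 27 and 15.5. The lines did not overlap at any of these, and the purine or pyrimidine content of the 3 loci was 51.8 to 62.7%. These members, like the others named below for their place near a gap or a start site, were picked after their values were seen.

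Purine-rich or pyrimidine-rich DNA was more frequent among the members than among the pooled remaining peaks, and most frequent in the class of members with the highest scores. Purine or pyrimidine content over the whole peak reached 70% in 81 members (3.88%, 95% Wilson interval 3.13 to 4.79, which covers counting error only), against 0.841% of all RT112 replicate 1 peaks and 0.774% of the remaining ones, a difference of 3.10 percentage points. Among the peaks that met RT112 replicate 2 and just 1 UM-UC-3 list it was 2.42% for replicate 1 and 3.17% for replicate 2, the latter within the members' interval, and among those that met only RT112 replicate 2 it was 1.16%. Without RT112 replicate 2, that is for the RT112 replicate 1 peaks that met both UM-UC-3 lists, the difference was 1.93 points. Limits of 65% and 75% in place of 70% gave 5.30 and 1.73 points. In the other lists, which show mostly the same loci against other remaining peaks, it was 3.06 points for RT112 replicate 2 and 3.08 and 3.17 points for UM-UC-3 replicates 1 and 2.

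The share rose with the mean percentile over the 4 libraries. It was 1.27% of the 395 members below percentile 50, 4.05% of the 518 from 75 to 90, 11.8% of the 170 from 90 to 95 and 28.6% of the 49 at 98 or above (14 members, 95% Wilson interval 17.8 to 42.4). In the 71 members from 95 to 98 it was 9.86%, so the rise was not even. The remaining peaks also rose with their score in RT112 replicate 1, from 0.373% below percentile 50 to 5.29% at 98 or above. Strong peaks of every list were thus richer in such DNA, members or not.

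Within the same score class of a list, members still had the larger share. In the top 2% of RT112 replicate 1, it was 12.4% of 209 members and 5.29% of 1719 remaining peaks. In the top 2% of RT112 replicate 2, the shares were 16.8% and 7.89%. For UM-UC-3 they were 11.0% and 2.94% in replicate 1 and 12.5% and 3.05% in replicate 2. Below percentile 50 of the lists, the shares were 0.437% and 0.373% for RT112 replicate 1, with 2 such members, and 1.54% and 0.410% for UM-UC-3 replicate 1, with 8.

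**Figure D4:**
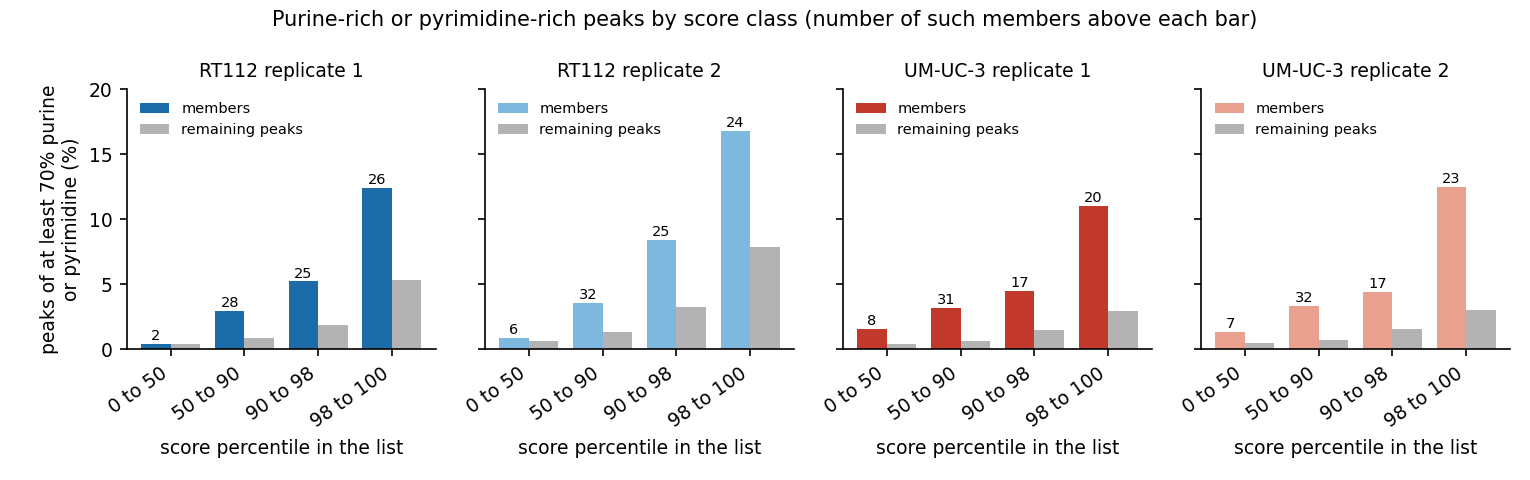
Percent of peaks that were at least 70% purine or pyrimidine, by class of score percentile in each of the 4 lists, for members (coloured, with the number of such members above the bar) and remaining peaks (grey). In the class from 98 to 100 the members reach 12.4%, 16.8%, 11.0% and 12.5% and the remaining peaks 5.29%, 7.89%, 2.94% and 3.05%.

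The 81 members of this kind were spread over 20 chromosomes, with 11 of them on chromosome 19, which held 47 of all 2090 members. Purines were on the plus strand in 48 and on the minus strand in 33. The central 32 bases were found at 1 place of the assembly in 76 of them, against 1856 of all 2090 members. Within 100 kb of an assembly gap lay 4 of them, against 28 of all members (1.34%). By position, 38 were in introns, 18 were distal intergenic and 18 lay in promoters. Of all members, 45.2% were in introns, 35.1% were distal intergenic and 14.9% lay in promoters. Of the 81, 20 (24.7%, 95% Wilson interval 16.6 to 35.1) were in the top 10% of all 4 lists, against 109 of the other 2009 members (5.43%, 4.52 to 6.50). Their median score was 11.6 and 10.6 in RT112 replicates 1 and 2 and 11.3 and 9.60 in UM-UC-3 replicates 1 and 2, against 6.52, 5.32, 6.61 and 6.57 in the other members.

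3 short words seen in the sequences printed above were then counted on both strands in all peaks. GAAAGAGA occurred in 181 members (8.66%) and in 4.49% of the remaining peaks. GAGAGAGA occurred in 180 members (8.61%) and in 5.50% of the remaining peaks. GACAGAGA occurred in 106 members (5.07%) and in 2.88% of the remaining peaks. Peaks below 70% purine or pyrimidine showed the same order, with GAAAGAGA in 7.17% of members and 4.22% of remaining peaks. The words overlap each other, members are wider, and the words were chosen from members, so the counts are a description.

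Of the motifs listed for the work, 4 are words of known factors. AGATAA, the GATA word, was present in 24% of members and 21.6% of remaining peaks. TGANTCA, the AP-1 word, was present in 11.1% and 10.4%. GGGCGG, the GC box, was present in 3.06% and 2.77%. CACGTG, an E-box, was present in 4.11% of members (95% Wilson interval 3.34 to 5.05) and 3.15% of remaining peaks, and seen from the other lists in 4.13% and 2.97% for RT112 replicate 2, 3.91% and 2.71% for UM-UC-3 replicate 1 and 3.90% and 2.61% for replicate 2. The members' interval for the E-box lay above the pooled remaining share in all 4 lists. In RT112 replicate 1 it included the 3.49% of the peaks that met only RT112 replicate 2. For the GATA word, the interval lay above the remaining share in RT112 replicate 1 (22.2 to 25.8%) and replicate 2 (19.8 to 23.4%, against 19.1%). It included that share in UM-UC-3 replicate 1 (21.1 to 24.8%, against 22.2%) and replicate 2 (20.6 to 24.3%, against 21.7%). Members are wider, and the 4 lists show mostly the same loci. All were searched on both strands. A GGAAT unit at least 2 times in tandem, as in the satellite of human pericentromeres, was rare, in 8 members (0.383%) and 0.160% of remaining peaks. A run of at least 8 GA or TC units was seen in 8 members (0.383%) and 0.307% of remaining peaks.

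GC content depended on which list was compared. Members had a median of 43.1% GC and the remaining RT112 replicate 1 peaks 42.1%, a difference of 1.06 points that was 0.572 and 0.556 points without RT112 replicate 1 and 2. Against the remaining peaks that RT112 replicate 2 also held it was 0.280 points. Taken from the UM-UC-3 lists, the difference was 3.01 and 3.22 points. The shift was larger at the AT-rich end, since 11.3% of members and 16.1% of the remaining RT112 replicate 1 peaks had under 35% GC.

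In location the members were close to all other peaks. Introns held 945 members (45.2%) and 45.3% of the remaining peaks. Distal intergenic DNA, more than 3 kb from any gene, held 734 members (35.1%, 95% Wilson interval 33.1 to 37.2), against 34.1% of all RT112 replicate 1 peaks. Promoters, within 3 kb of a transcription start site of any transcript, held 311 members (14.9%, 13.4 to 16.5), against 15.6%. The intervals of both included the background share. UTRs and other exons together were rare, with 1 member in a 5′ UTR, 23 in a 3′ UTR and 39 in another exon.

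Only 9 members (0.431%) lay within 500 bp of the start site of a protein-coding gene, against 0.283% of the remaining peaks, and the interval for members (0.227 to 0.816%) included that share. The strongest of the 9 was chr14:69725413-69725695 at GALNT16, a glycosyltransferase of mucin-type glycosylation, which scored 10.7, 11.8, 16.1 and 13 in RT112 replicates 1 and 2 and UM-UC-3 replicates 1 and 2. At MAP1LC3B2, a paralog of the autophagy protein LC3, chr12:116986327-116986740 scored 9.59, 8.85, 44.9 and 52.6. Both UM-UC-3 scores were the higher ones at each. The start site of IL1R2, a decoy receptor for interleukin-1, had a member that was 87.1% purine or pyrimidine and scored 7.34, 10.6, 5.54 and 4.31.

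Repeated sequence was not more frequent among the members. The central 32 bases were found at more than 1 place in 234 members (11.2%, 95% Wilson interval 9.91 to 12.6), against 11.6% of all RT112 replicate 1 peaks. In members taken from UM-UC-3 replicates 1 and 2, the share was 2.15 and 2.83 points below that of their remaining peaks. Whether whole reads could be placed at such loci was not computed. The most repeated member, in an intergenic stretch 14.0 kb from MDH2, had 27851 copies and low scores of 2.76, 4.09, 6.61 and 5.16.

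**Figure D5:**
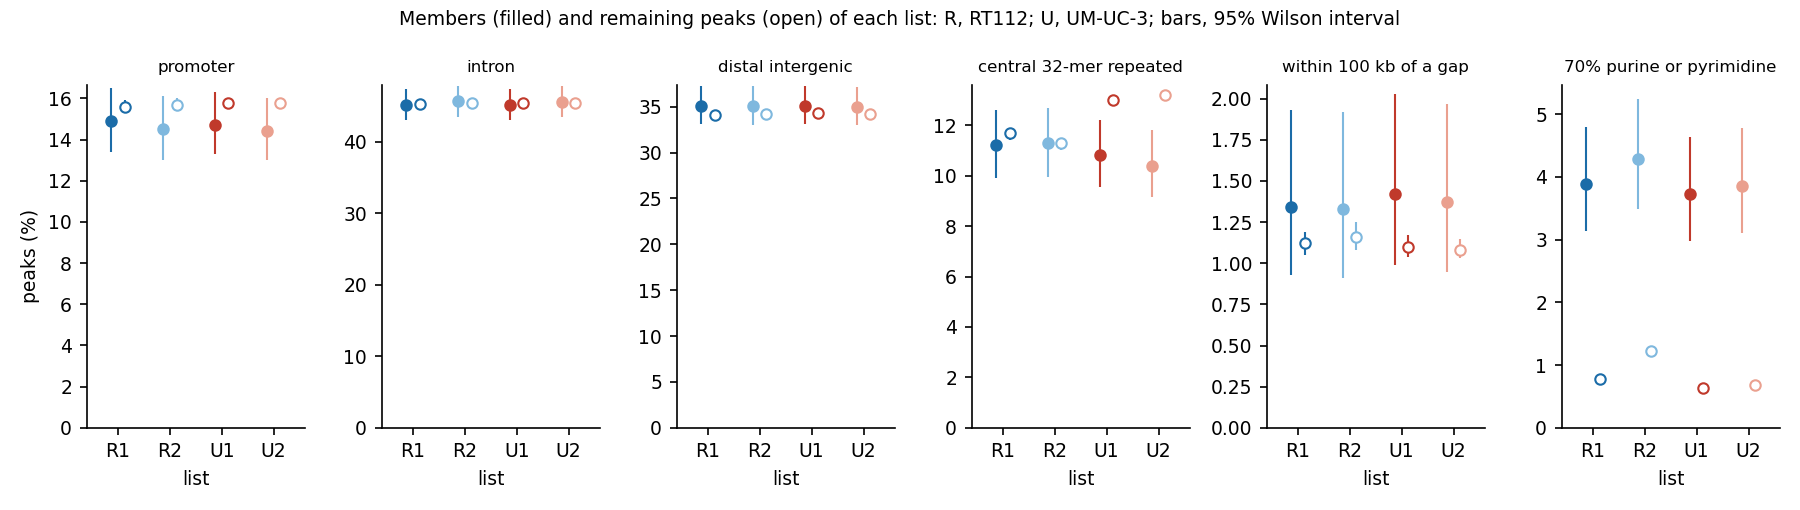
Percent of members (filled) and remaining peaks (open) of each list (R1 and R2, RT112 replicates; U1 and U2, UM-UC-3 replicates) by location, repeated central 32 bases, distance to an assembly gap and purine or pyrimidine content of at least 70%, with 95% Wilson intervals as bars. Location and gap distance overlap in all 4 lists, the repeated share is lower in UM-UC-3 members, and the purine or pyrimidine share separates in all 4 lists (3.88% against 0.774% in R1).

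Proximity to assembly gaps marked only a few members. Within 100 kb of a gap, a run of at least 1000 undetermined bases, lay 28 members (1.34%, 95% Wilson interval 0.929 to 1.93), against 1.12% of all RT112 replicate 1 peaks. They lay beside 26 of 292 gaps, and 5 were beside a gap of at least 1 Mb. Among the 120 members with a mean percentile of at least 95, 8 lay this close to a gap. At percentile 98 or above it was 4 of 49 (8.16%), against 1.22% of the remaining peaks at 98 or above in RT112 replicate 1. The gap-side members were thus few but included strong peaks.

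The strongest by mean percentile lay on chromosome 8, 0.594 kb from FAM90A9 and 97.8 kb from a gap, and scored 27.9, 24, 33.6 and 25.6 in the RT112 and then the UM-UC-3 libraries, so the lines overlapped. A group of 3 members lay at chr4:49309936-49323757, 15.2 kb from a gap of 150 kb and 246 kb from CWH43, a gene of lipid anchors of membrane proteins. Their scores ran from 13 to 65.7 in RT112 replicate 1 and from 2.31 to 19.9 in UM-UC-3 replicate 1, and in 2 of them the central 32 bases were repeated elsewhere. At chr1:142966689-142967414, 0.347 kb from a gap, the scores were 57.1, 43.9, 11.4 and 12.9 in RT112 replicates 1 and 2 and UM-UC-3 replicates 1 and 2, with both RT112 scores higher. At chr4:1500358-1500594, 21.7 kb from a gap, they were 15.7, 14.9, 24.8 and 23.4, with both UM-UC-3 scores higher.

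Few members lay close to each other. Another member lay within 10 kb of 67 members (3.21%), while a remaining RT112 replicate 1 peak lay that close to 1194 (57.1%), compared with 54.6% for the remaining peaks themselves. The median distance between neighbouring members was 752 kb, against 17.5 kb for all peaks of the list. The members are far fewer than the remaining peaks, which alone makes them lie further apart, so these values say nothing about grouping. There were 33 groups within 10 kb, and the group of 3 beside the chromosome 4 gap was the largest.

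The next groups by the strength of their best member had 2 members each. They lay in CYP2B6, with RT112 replicate 1 scores of 40.8 and 24.4 and UM-UC-3 replicate 1 scores of 33.6 and 5.19. On chromosome 22, 459 kb from CRYBA4, a lens crystallin, the RT112 replicate 1 scores were 23.3 and 16.1 and the UM-UC-3 replicate 1 scores 5.34 and 30.6. A further pair lay 27.5 kb from LRRN2, a leucine-rich repeat protein of neurons, with 2.72 and 22.7 in RT112 replicate 1 and 3.88 and 16.2 in UM-UC-3 replicate 1. Neighbouring members thus differed in score within a group. The pair in POU2F2 is described above, and the pair 15.3 kb from ZNF16, a zinc finger protein, scored 2.76 and 11.6 in RT112 replicate 1 and 9.65 and 21.9 in UM-UC-3 replicate 1.

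Over chromosomes 1 to 22 and X, the share of RT112 replicate 1 peaks that were members ran from 1.30% on chromosome 4 (49 of 3774, 95% Wilson interval 0.984 to 1.71) to 3.23% on chromosome 19 (47 of 1457, 2.43 to 4.26). Chromosome 5 gave 2.78% and chromosome 14 gave 1.37%. Over 23 chromosomes, Spearman's rho between this share and the density of UM-UC-3 replicate 1 peaks was 0.41, where both rest on the same UM-UC-3 list. Densities can differ between the lines with copy number, which was not measured here.

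Genes with members were long genes. Of 20163 protein-coding genes, 855 (4.24%) had a member in them or within 3 kb, 21 had at least 3, while 53.9% had an RT112 replicate 1 peak. The median length was 162 kb for genes with a member, 59.4 kb for genes with an RT112 replicate 1 peak and 27.2 kb for all. RBFOX1, a splicing regulator of neurons that spans 2474 kb, had the highest number, 6 of its 162 RT112 replicate 1 peaks.

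The strength of the 6 RBFOX1 members varied. The mean percentile was lowest at chr16:7248330-7248597, with scores of 3.80, 4.09, 3.88 and 3.85 in RT112 replicates 1 and 2 and UM-UC-3 replicates 1 and 2. It was highest at chr16:6371708-6371979, with 10.1, 10.8, 18.2 and 18.1. The member chr16:7488300-7488543 was strong in UM-UC-3 only, with 6.15, 5.29, 33.6 and 37.6, and chr16:6788319-6788660 in RT112 only, with 24.4, 25.8, 5.19 and 6.57. All 6 were intronic.

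DNAH5, a dynein heavy chain of motile cilia, had 4 members among 26 peaks (15.4%), the strongest at chr5:13709612-13710589 with 21, 17.1, 21.6 and 14.6. KCNQ3, a potassium channel subunit of neurons, had 4 among 32 (12.5%), with RT112 replicate 1 scores from 2.76 to 11.9. ASIC2, an acid-sensing ion channel, had 4 among 77 (5.19%), with RT112 replicate 1 scores from 3.80 to 22.7. The members of these genes were intronic and, apart from the DNAH5 locus named, below percentile 90 of the mean.

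The other 8 of the 12 genes with the most members had 3 each, taken from the 21 by members per length. In POU2F2 the 3 members made up 60% of its 5 RT112 replicate 1 peaks. All were classed as promoter, and the gene to which the start site belongs was not recorded. The others were ENSG00000266076, which has no symbol, PCYT1B, an enzyme of phosphatidylcholine synthesis, TRABD2B, a metalloprotease that acts on Wnt proteins, C12orf42, TG, the thyroglobulin gene, TMEM178B, and CACNA1A, a calcium channel subunit of nerve terminals. The strongest of their members was chr7:141151848-141152153 in TMEM178B, with 16.1, 13.9, 25.7 and 29.5, and the weakest was chr1:48357089-48357366 in TRABD2B, with 3.5, 2.85, 4.64 and 2.32. The lines overlapped at the weakest, and UM-UC-3 was higher at the strongest.

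None of 4 short lists of genes chosen for the biology of PAI-1 and of the tissue held a member. None of 18 genes of fibrinolysis had one, PLAU and PLAT among them, although 11 had an RT112 replicate 1 peak. The same was true of 15 genes of urothelial identity, such as uroplakins, keratins and GATA3, where 7 had a peak. It was also true of 12 genes whose proteins the study recovered with PAI-1 and of 12 genes with ChIP-PCR primers, where 8 of each had a peak. Over all protein-coding genes the share with a member was 4.24%, and these lists were short.

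The study listed genes near a peak that, by its figure legend, were upregulated after PAI-1 knockdown. Of these, 39 of 434 for UM-UC-3 (8.99%) and 39 of 470 for RT112 (8.30%) had a member, and 5 of the 57 on both lists. SHISA9, with 2 members, CACNA1C, DYNC1I1 and TMEM163 were among these. The study chose these lists in part by the same peaks, and their genes had a median length of 41.9, 41.0 and 33.6 kb against 27.2 kb for all, so the shares are not independent evidence.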

How the data were processed

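ChIP was done with a commercial kit and an antibody to PAI-1, and libraries were sequenced for 2 immunoprecipitates and 1 input per cell line. Per the submitters' processing notes and methods, reads were checked and trimmed with FastQC and Trimmomatic, mapped to hg19 with Bowtie 1.1.1, freed of PCR duplicates with Picard and turned into peaks with MACS2 2.1.0.20140616. The deposited BED files list the peaks of each library separately, and the score that the authors deposited is a −log10 p-value or q-value, which of them is not given in the sources used here. Whether the input served as the control is not given either.

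The 2 input libraries were not analysed. Groups came from the labels. Intervals were compared on GRCh37 at 1 bp, with GENCODE 44 lifted to that build for genes, using Python 3.11.15 with numpy 2.4.6, pandas 2.3.3, scipy 1.17.1, numba 0.67.0 and matplotlib 3.10.9. Copies of the central 32 bases were counted on both strands. A peak took the first location that fitted, with promoters ahead of UTRs, UTRs ahead of the remaining exons, then introns, the 3 kb downstream and last distal intergenic DNA. The scripts were tested on 2000 simulated sites, where 100% of planted shared loci were found.

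The members, gene lists and motifs were chosen with earlier results of these data known, and the purine or pyrimidine measure, its limits and the 3 words after the data had been seen. Named genes are the 12 protein-coding genes with the most members, ties by members per length, the 10 members with the best mean percentile, the 6 groups with the most members, ordered by their best member, genes of the lists that hold a member, and loci at the limit of the rule. Samples are separate libraries only as far as the labels say, so the spread between them may be technical. Reciprocal overlap, stricter scores, left-out libraries, other reference lists and other distances were tried as alternatives. A share of masked bases was not computed because the genome used marks none. Some sequences and genes are not reported here.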

Additional observations from a re-analysis of the deposited data

How the results depend on the processing

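Of 147 alternative values for 11 results, 31 moved by more than the tolerance for that result, 1 reversed and 115 did neither. The tolerance was the 95% interval of the reported value or, for the number of members, a fixed factor, and for the percentile difference between the lines the sign alone was compared. Location shares stayed within their intervals under all 16 alternatives each. A reciprocal overlap of 50% left 1171 members, a width difference of 11.0 bp and 1.54% of members with another within 10 kb. Restriction to the top 25% of scores per list gave 373 members, a score difference of 4.29, 2.25 points more members near a gap, 1.07% near another member and a purine or pyrimidine difference of 11.4 points. Members taken from UM-UC-3 replicate 1 or 2 differed from the remaining peaks of that list by 3.01 or 3.22 points in GC content and -2.15 or -2.83 points in repeated sequence, and those from RT112 replicate 2 by 1.57 in score. Against the remaining peaks found in RT112 replicate 2, score and GC content differed by 1.23 and 0.280 points, and within 4 classes of the score, width and GC content by 17.2 bp and 0.449 points. Counting every line of the lists put 4.70% of members near another, and distances of 5 and 50 kb put 1.82% and 11.5%. The purine or pyrimidine limits of 65% and 75%, chosen after seeing the data, gave 5.30 and 1.73 points. Apart from the limits set by construction, the causes were not tested. Leaving out each library in turn gave 2711 to 4210 members, score differences of 1.14 to 3.62, width differences of 14.0 to 26.0 bp, GC content differences of 0.556 to 1.1 points, 3.68 to 4.75% of members near another, purine or pyrimidine differences of 1.93 to 2.96 points, and percentile differences between the lines of -3.03 to 4.03, which turned negative without RT112 replicate 2. The distal intergenic difference ranged over -0.531 to 1.34 points, the promoter difference over -0.759 to -0.196 points, the repeated difference over -0.592 to -0.0274 points and the gap difference over 0.0443 to 0.327 points. Nothing in the labels ties equal replicate numbers of the lines together. With the replicate number as a block, the percentile difference between lines was 0.502, and 2 pairs allow no test that could pass a threshold. Depth per library is not given in the sources used here, so a locus missing from a list cannot be told from one below detection.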
